A study of Mus musculus with 7 samples.

Results

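The cytosolic aminoacyl-tRNA synthetases and Atf4 with its stress targets were described in neutrophils and in monocytes/macrophages of the mouse heart after myocardial infarction. The 32 genes were chosen from the literature on the integrated stress response with earlier results on these data in view: the level of Eprs in neutrophils by day was already known when the list was drawn up. The size of the Eprs change in neutrophils is therefore given as a description only, counts of called members leave it out, and it supports nothing. The list holds 18 synthetases (Aars, Cars, Dars, Eprs, Gars, Hars, Iars, Kars, Lars, Mars, Nars, Qars, Rars, Sars, Tars, Vars, Wars and Yars) and 14 other genes (Atf4, Ddit3, Asns, Psat1, Phgdh, Shmt2, Mthfd2, Slc7a11, Slc3a2, Slc7a5, Chac1, Trib3, Sesn2 and Ddit4). All 32 had a row in each of the 7 matrices, among 27514 genes shared by both annotations used.

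Single-cell RNA sequencing was carried out on leukocytes of C57BL6/J mice in 3 experiments. In the CD45+ experiment, male mice without an infarct (5 pooled) and 1 (5), 3 (5), 5 (5) and 7 (3) days after permanent ligation of the left descending coronary artery each gave 1 library of viable heart cells free of the CD45.2 antibody given into the blood (extravascular cells), after a step that lowered the number of neutrophils. In the CD11b+ pool, heart cells of male mice 1 (5), 3 (5) and 5 (3) days after ligation were sorted in the same extravascular gate for CD11b, marked with Hashtags 1, 2 and 3 and run together with a later chemistry. In both experiments the infarct, its border zone and neighbouring myocardium were digested with enzymes. The blood and heart pool held CD11b+ cells, with about equal parts of Ly6G+ and Ly6G- cells, from mice aged 8 to 10 weeks without surgery (3), after sham surgery (day 1, 3; day 3, 3) or after ligation (day 1, 5; day 3, 5). Its tissue was broken up mechanically, and its Hashtags 1 to 7 were not mapped to these conditions, so each stands on its own below.

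Aminoacyl-tRNA synthetases join each amino acid to its tRNA and so feed every ribosome. When a kinase phosphorylates the initiation factor eIF2, general translation slows while Atf4 messenger RNA is translated more, and Atf4, often paired with C/EBP proteins, turns on genes for amino acid import, amino acid synthesis, antioxidant supply and several synthetases. Cells without enough amino acids, with an overloaded endoplasmic reticulum or under oxidative stress use this pathway, and infarcted myocardium is short of oxygen and nutrients.

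The core of the element that Atf4 and C/EBP proteins bind, TGATGNAA, was searched on both strands of RefSeq promoter windows (build GRCm38.p6, 250 bases before to 50 after each start). It was the only motif searched. It was present in 1304 of 32851 windows (3.97%), or in 1219 of 27025 genes (4.51%). A window was at hand for 23 of the 32 genes. The motif was present in 4 of 13 Atf4 targets (30.8%; Asns, Chac1, Slc7a11 and Trib3) and in 5 of 10 synthetases (50%; Aars, Gars, Iars, Tars and Yars). A match is a stretch of letters, not a shown binding site, and a window without it says nothing about Atf4. The stretches before the start of Slc7a11 (chr3:50443633-50443699, minus strand) and Asns (chr6:7693210-7693252, minus strand) are printed because these 2 genes fell with time in monocytes/macrophages. Other members that fell there did not show the core: Atf4, Ddit4 and Mthfd2 had a window without it, and Slc7a5 had no window. No link between the core and the fall is read from this. Those of Gars (chr6:55037951-55037998, plus strand), Aars (chr8:111033710-111033757, plus strand) and Tars (chr15:11399659-11399693, minus strand) show the same core in synthetases, and that of Chac1 (chr2:119351029-119351076, plus strand) in a target seen mainly in neutrophils. All run 5′ to 3′ on the gene's strand, and capitals mark the core or its reverse complement.
Slc7a11: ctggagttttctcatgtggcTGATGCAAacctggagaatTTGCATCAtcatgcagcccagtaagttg
Asns: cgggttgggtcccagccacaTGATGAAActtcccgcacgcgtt
Chac1: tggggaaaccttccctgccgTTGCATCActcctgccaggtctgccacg
Gars: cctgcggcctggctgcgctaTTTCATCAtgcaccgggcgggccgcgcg
Aars: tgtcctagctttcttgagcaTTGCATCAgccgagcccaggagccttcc
Tars: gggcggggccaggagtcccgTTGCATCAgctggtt
Slc7a11 held the core on each strand, starting 66 and 47 bases before the start site, Asns 23 bases before it on the gene's own strand, and the other 4 only as the reverse complement. Distances are from the RefSeq start of each window, which can differ from the annotated gene coordinates. The stretches of Asns and Aars lie inside the annotated genes (chr6:7675169-7693254 and chr8:111033144-111057664).

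After filtering, 522 to 1793 cells per CD45+ library, 4282 in the CD11b+ pool and 9999 in the pool from blood and heart were used. At most 12 cell barcodes were shared between any 2 libraries. UMI counts (counts of tagged molecules) were summed per class within each day or Hashtag, and levels are given as CPM (counts per 1000000 counts of that sum). The sums held 106922 (41 neutrophils, CD45+ day 5) to 35420555 UMIs (1108 monocytes/macrophages, pool day 5). Intervals are exact 95% Poisson intervals and cover counting error only. Neutrophils of the CD45+ experiment at steady state (7 cells) and day 7 (28 cells) were too few to use. In sums of cells, fewer expressing cells and less RNA per cell cannot be told apart.

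The label of 1 sum was weak. Monocytes/macrophages of the CD45+ day 1 library came almost wholly from 1 cluster (237 of 247 cells) led by Saa3, Cxcl3 and Arg1, and 10 neutrophil markers summed to 15783 CPM there, against 3065 CPM for 10 macrophage markers. The same neutrophil markers summed to 200340 CPM in that library's neutrophils, and to 143 to 1597 CPM in monocytes/macrophages of the other CD45+ libraries (Ly6g at 0 at steady state, day 5 and day 7), 528 to 2007 CPM in the CD11b+ pool and 1554 to 7458 CPM in the blood and heart pool. In neutrophils, 10 macrophage markers summed to 194, 1633 and 4826 CPM at days 1, 3 and 5 of the CD45+ experiment (Mrc1 at 0 at day 5), to 1183 to 1360 CPM in the CD11b+ pool and to 317 to 551 CPM in the blood and heart pool. Different clusters also held each class on different days. In the CD11b+ pool cluster 0 (led by Plac8, Arg1 and Fn1) held 197 of 212 monocytes/macrophages at day 1. Clusters 3 and 6 (led by Pf4 and Fabp5, and by Selenop and Apoe) held 583 and 320 of 1108 at day 5. Of CD45+ neutrophils, cluster 11 (led by Ngp and Retnlg) held 214 of 216 at day 1. Cluster 10 (led by G0s2 and Il1r2) held 133 of 135 at day 3 and 41 of 41 at day 5. Of pool neutrophils, cluster 2 held 213 of 254 at day 1. Cluster 1 held 776 of 992 at day 3 and 152 of 224 at day 5.

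In monocytes/macrophages, 6 of the Atf4 group fell from day 1 to day 5 and no synthetase passed the test. Days were compared over 6 sums (days 1, 3 and 5 in 2 experiments) with edgeR's quasi-likelihood test, with the experiment as a term and Benjamini-Hochberg adjustment over all 10637 genes tested. All 18 synthetases and 13 of the 14 other genes had enough counts (Chac1 did not). Of the 31 members tested, 9 had p under 0.05 before adjustment, beside 3582 of all 10637 genes. That count does not set the members apart. Of the 13, 6 were lower at day 5 at an adjusted p under 0.05 and none was higher, beside 7.34% of all genes lower and 6.12% higher. The median log2 change was -1.05 over the 13 and -0.21 over the 18 synthetases, beside -0.02 over all genes. The 6 were the transporter genes Slc7a11 and Slc7a5, the growth regulator Ddit4, Atf4 itself and the enzymes Asns and Mthfd2.

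Slc7a11 (chr3:49892526-50443614, minus strand, GRCm38) encodes the light chain of the cystine-glutamate exchanger, which supplies cystine for glutathione. In monocytes/macrophages of the CD45+ experiment it was at 9.73 CPM (6.89 to 13.4) at steady state and 836, 491, 179 and 96.9 CPM at days 1, 3, 5 and 7. In the CD11b+ pool it was at 822, 283 and 146 CPM at days 1, 3 and 5. Day 1 was highest in both experiments and the values of days 1, 3 and 5 did not overlap. The fitted day 5 against day 1 change was -2.62 on the log2 scale (SE 0.22, edgeR adjusted p = 0.0046), -2.47 within the CD45+ experiment and -2.58 within the pool. The call held when any of the 6 sums was left out, and without the weakly labelled CD45+ day 1 sum the change was -2.74. The annotated gene overlaps Gm37692 and Gm37498 on its own strand and 3 predicted genes on the other.

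The decline in the CD11b+ pool was seen both within a cluster and as a shift between clusters. In cluster 0, Slc7a11 was at 876 CPM at day 1, 620 at day 3 and 537 at day 5. Cluster 3 was at 95.6 CPM at day 3 and 88.2 at day 5, and cluster 6 was at 95.2 CPM at day 5. These clusters were drawn from the same counts, so their levels are a description.

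Ddit4 (chr10:59949669-59951834, minus strand), also known as Redd1, encodes an inhibitor of the growth kinase complex mTORC1. In monocytes/macrophages it was at 9.73 CPM at steady state and 213, 42.9, 27.9 and 33.9 CPM at days 1, 3, 5 and 7 of the CD45+ experiment, and at 59.5, 17.3 and 14.1 CPM at days 1, 3 and 5 of the pool. Day 1 was highest in both, and each CD45+ value was above the pool's for that day. Its day 5 against day 1 change was -2.76 (SE 0.27, edgeR adjusted p = 0.0065), and it was called without each of the 6 sums in turn (-3.13 to -2.28). It was also the only one of the 31 tested members called from day 1 to day 3, at -2.30 (SE 0.27, adjusted p = 0.041), beside 0.62% of all genes lower and 0.188% higher in that contrast. That call was lost without the pool's day 3 sum (adjusted p = 0.29) and with scaling by total counts (adjusted p = 0.064). Slc7a11 was at -1.38 from day 1 to day 3 (adjusted p = 0.057). In pool cluster 0, Ddit4 was at 64.6, 22.9 and 25.6 CPM at days 1, 3 and 5, and in cluster 3 at 14.2 and 12.4 CPM at days 3 and 5.

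Atf4 (chr15:80255184-80257541, plus strand), the transcription factor of the pathway, is controlled largely at translation, so its messenger RNA is only part of its output. In monocytes/macrophages it was at 159 CPM at steady state and 180, 125, 89.4 and 107 CPM at days 1, 3, 5 and 7 of the CD45+ experiment. In the pool it was at 238, 198 and 160 CPM at days 1, 3 and 5. Within each experiment day 1 was highest and day 5 lowest of the 3 shared days, but the pool's day 5 value lay near the CD45+ value at steady state. The change from day 1 to day 5 was -1.05 (SE 0.19, edgeR adjusted p = 0.026), and it was not called without CD45+ day 5 (adjusted p = 0.29), pool day 3 (0.066) or pool day 5 (0.071). Ddit3, which encodes the Chop transcription factor downstream of Atf4, was at 81.5 CPM at steady state and 26.2, 29.4, 35.1 and 35.0 CPM at days 1, 3, 5 and 7, and at 25.1, 32.2 and 28.3 CPM in the pool. Its steady-state level was above all of the infarct sums, whose intervals for days 1 to 7 in the CD45+ experiment overlapped. Its fitted change from day 1 to day 5 was 0.04 (SE 0.19, adjusted p = 0.91).

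Of the amino acid transporters, Slc7a5 (chr8:121881150-121907694, minus strand) encodes the light chain of the large neutral amino acid transporter. It was at 7.17 CPM at steady state and 18.9, 6.07, 4.63 and 3.32 CPM at days 1, 3, 5 and 7 in monocytes/macrophages, and at 13.6, 10.2 and 5.28 CPM in the pool. Both day 1 values lay above all later values. The day 5 against day 1 change was -1.93 (SE 0.36, edgeR adjusted p = 0.026), not called without CD45+ day 5 (adjusted p = 0.13) or pool day 5 (0.082). With each cell's class read from its own marker UMIs, which left the CD45+ day 1 sum below 30 cells and out of the fit, it was -0.73 (adjusted p = 0.12). Slc3a2 encodes the heavy chain that both of these light chains need. It was at 570 CPM at steady state, 614, 621, 575 and 501 CPM at days 1, 3, 5 and 7 and 465, 415 and 427 CPM in the pool. The 2 experiments did not overlap. Its change was -0.37 (SE 0.15, adjusted p = 0.15).

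Asns (chr6:7675169-7693254, minus strand), asparagine synthetase, was at 1.28 CPM (5 UMIs) at steady state and 10.3, 5.67, 3.51 and 2.41 CPM at days 1, 3, 5 and 7 in monocytes/macrophages, and at 5.73, 2.43 and 2.77 CPM in the pool. In the pool's day 1 sum, 8 of 29 UMIs came from 1 cell. The pool's value at day 1 fell within the CD45+ interval at day 3 (4.09 to 7.66). The day 5 against day 1 change was -1.49 (SE 0.36, edgeR adjusted p = 0.046). This call rested on every sum but CD45+ day 1: without each of the other 5 it was lost, with adjusted p from 0.052 (pool day 1) to 0.44 (CD45+ day 5), and it was lost with classes from each cell's own markers (-0.71, adjusted p = 0.41).

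Mthfd2 (chr6:83305691-83325908, minus strand), a mitochondrial folate enzyme, was at 16.4 CPM at steady state and 37.7, 32.4, 21.2 and 16.3 CPM at days 1, 3, 5 and 7, and at 30.4, 26.9 and 19.9 CPM in the pool. Values at day 5 lay below those of days 1 and 3 in both experiments. Its change was -0.97 (SE 0.19, edgeR adjusted p = 0.029), lost without CD45+ day 3 (adjusted p = 0.051), CD45+ day 5 (0.38), pool day 3 (0.090) or pool day 5 (0.12). Shmt2, the mitochondrial serine hydroxymethyltransferase that feeds the same pathway, was at 10.8 CPM at steady state, 3.43, 11.6, 13.2 and 11.3 CPM at days 1, 3, 5 and 7 and 8.10, 14 and 12.9 CPM in the pool. Day 1 was lowest in both experiments, but the fitted change of 0.85 (SE 0.32) did not pass (adjusted p = 0.12). It was the largest fitted increase among the members in this class.

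The remaining targets did not pass the test in monocytes/macrophages. Sesn2, a leucine sensor that restrains mTORC1, ran from 3.43 to 10.1 CPM over the heart sums, and the serine synthesis gene Psat1 from 6.66 to 20.8 CPM. Phgdh, which starts serine synthesis, ran from 0.140 to 4.07 CPM, and Trib3, a pseudokinase that feeds back on Atf4, from 0.790 to 3.86 CPM. Chac1, which breaks down glutathione, was at 0 to 1.11 CPM. From day 3 to day 5 no member was called by edgeR, where 0.0094% of all genes were. For that contrast 889 of all 10637 genes had an unadjusted p under 0.05, and DESeq2 called 123 genes, Slc7a11 among them (edgeR -1.24, adjusted p = 0.24).

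**Figure D1:**
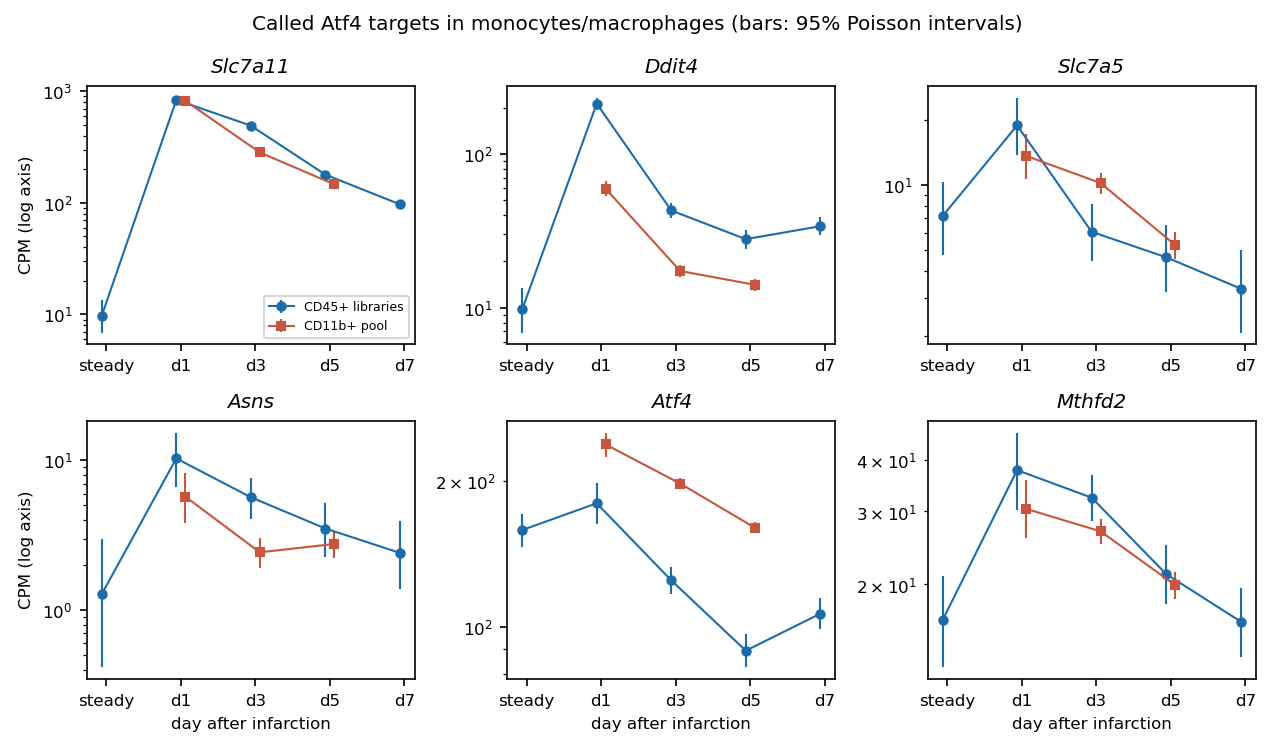
Levels (CPM, log axis) of the 6 genes that were lower at day 5 than at day 1 in monocytes/macrophages, by day, for the CD45+ libraries (circles) and the CD11b+ pool (squares), with bars for 95% Poisson intervals. Day 1 is the highest of the infarct days in both experiments for each gene, from 836 and 822 CPM for Slc7a11 to 10.3 and 5.73 CPM for Asns.

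For steady state there was 1 library, so day 1 was set against it without a test, over 8912 genes with at least 20 UMIs in the 2 sums together. Of 11 targets with enough UMIs, 5 were over 2-fold higher at day 1, beside 12.1% of all genes, and 2 were over 2-fold lower, beside 29.7%. Slc7a11 was 84.8-fold higher (1950 UMIs against 38), Ddit4 21.6-fold (497 against 38), Asns 7.46-fold (24 against 5), Slc7a5 2.61-fold (44 against 28) and Mthfd2 2.30-fold (88 against 64). At steady state 1 cell gave 8 of the 38 Slc7a11 UMIs and 1 gave 11 of the 38 Ddit4 UMIs. Ddit3 was 3.09-fold lower (61 against 318) and Shmt2 2.99-fold lower (8 against 42). Of the 18 synthetases none was 2-fold higher and only Qars was 2-fold lower (32 UMIs against 122). The median log2 difference was 0.37 over the 11 targets, -0.13 over the synthetases and -0.30 over all genes. Steady-state cells lay mostly in cluster 0 (405 of 530 cells), whose leading genes include the stress genes Hspa1a, Atf3 and Jun, and the neutrophil markers of the day 1 sum were given above: their part in these differences was not tested.

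From day 5 to day 7, also 1 library each, none of the 18 synthetases and 1 of 12 targets (Phgdh, 27 UMIs against 1) was over 2-fold higher, beside 3.43% of all genes, and none was 2-fold lower, beside 2.72%. Slc7a11 differed by -0.88 on the log2 scale. The median was -0.22 over the synthetases, -0.10 over the targets and -0.07 over all genes.

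No synthetase of monocytes/macrophages passed the test in any of the 3 contrasts. Summed without Eprs, they were at 481 CPM at steady state, 457, 684, 562 and 488 CPM at days 1, 3, 5 and 7, and 692, 707 and 625 CPM in the pool. The highest CD45+ value was at day 3, while days 1 and 3 of the pool were close. TMM factors (the kind of scaling used in the tests) were also taken over all sums of the class, the blood and heart pool included. Divided by them, days 1, 3 and 5 were at 665, 834 and 648 CPM and at 727, 686 and 626 CPM in the pool. Day 5 was lowest in the pool, while days 1 and 5 of the CD45+ experiment were close. The tests used TMM factors of their own sums alone (0.758 to 1.21), so these values are not on the scale of the tests. Nars, the asparaginyl-tRNA synthetase, was at 133, 111, 179, 131 and 114 CPM from steady state to day 7 and at 150, 132 and 120 CPM in the pool. Eprs, whose protein charges both glutamate and proline tRNA, was at 43.5, 33.0, 69.4, 60.9 and 68.7 CPM, and at 125, 113 and 106 CPM in the pool. Its pool values were all above its CD45+ values, and the fitted change from day 1 to day 5 was -0.01 (adjusted p = 0.98). Without the pool's day 1 sum the fitted change was 0.61 instead. Sars, which charges serine, was at 42.0, 27.0, 41.6, 45.2 and 47.3 CPM and at 55.2, 57.5 and 57.8 CPM in the pool. Day 1 was lowest in the CD45+ experiment, and the pool's days were alike within their intervals.

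Among the synthetases the lowest fitted change was that of Gars (glycine), at -0.68 (SE 0.17, edgeR adjusted p = 0.053), followed by Aars (alanine) at -0.59 (SE 0.17, adjusted p = 0.074). Gars was at 29.7, 45.0, 44.4, 32.6 and 27.4 CPM from steady state to day 7 and at 47.8, 44.7 and 36.5 CPM in the pool, so day 5 was lowest of the shared days in both. DESeq2 called Gars (adjusted p = 0.044), beside 1832 of all 10637 genes. The largest fitted increase was that of Qars (glutamine) at 0.46 (SE 0.35, adjusted p = 0.39): it was at 31.2, 13.7, 40.0, 41.8 and 39.3 CPM and at 43.9, 44.9 and 49.0 CPM in the pool, and day 1 of the CD45+ experiment stood alone. The other 14 synthetases beside Eprs lay between these changes. Of those not given by day, Rars ran from 27.4 CPM (steady state) to 76.3 CPM (CD45+ day 3) over the heart sums, Hars from 16.9 to 43.3, Dars from 31.0 to 56.8, Lars from 10.7 to 35.4, Iars from 6.43 to 25.4 and Vars from 11.1 to 30.7 CPM. Kars, Tars, Wars, Cars, Mars and Yars ran within 6.86 to 37.5 CPM, and Aars within 29.0 to 42.9 CPM. Scaling by total counts moved the median of all genes from -0.02 to 0.23 here, the synthetases' median to 0.05 and the targets' to -0.79, so the direction of the synthetases' median depended on the scaling. Under total counts Mthfd2 (adjusted p = 0.061) and Asns (0.074) were not called.

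**Figure D2:**
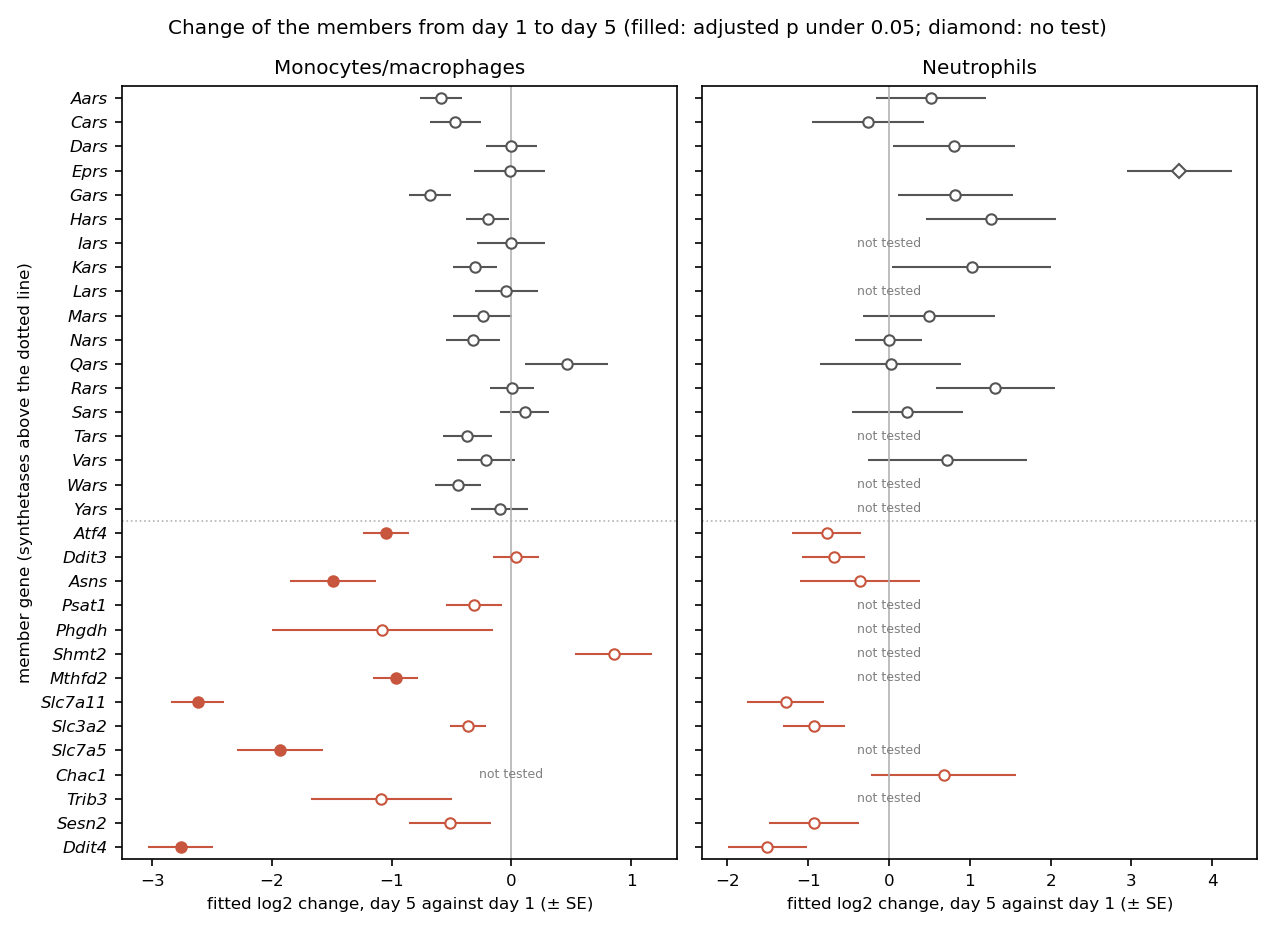
Fitted log2 change from day 1 to day 5 (x axis, bars are SE) of each tested member in neutrophils and monocytes/macrophages, with filled circles for an adjusted p under 0.05. The 6 filled circles of monocytes/macrophages, from Ddit4 (-2.76) to Mthfd2 (-0.97), lie left of 0; the diamond is Eprs in neutrophils (3.59), whose level was known when the genes were chosen and which has no test here.

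In neutrophils, 13 of the 18 synthetases and 8 of the 14 other genes had enough counts to be tested. Not tested were Iars, Lars, Tars, Wars, Yars, Psat1, Phgdh, Shmt2, Mthfd2, Slc7a5 and Trib3. Apart from Eprs no member was called from day 1 to day 5 by edgeR or DESeq2. Of all 6184 genes, edgeR called 1.68% higher and 5.09% lower, and DESeq2 called 364. Before adjustment 3 others, Slc7a11, Slc3a2 and Ddit4, had p under 0.05, beside 1451 of all genes. From day 1 to day 3 none was called by edgeR (2.04% of all genes), while DESeq2 called 141 genes and 1081 had p under 0.05 before adjustment. From day 3 to day 5 edgeR called no gene at all (0%), while DESeq2 called 1 and 126 had p under 0.05 before adjustment. The median change from day 1 to day 5 was 0.62 over the 12 synthetases other than Eprs (10 of 12 positive) and -0.85 over the 8 targets (1 of 8 positive), beside -0.03 over all genes. With total counts the median of all genes became 0.90, that of these synthetases 1.53 and that of the targets 0.15. The scaling matters most in this class. Over all sums of the class, TMM factors were 0.590, 0.948 and 1.53 at days 1, 3 and 5 of the CD45+ experiment. They were 0.763, 1.13 and 1.45 in the pool. The factors of the tests, taken from their own sums alone, ran from 0.536 to 1.46. CPM values of day 5 are high against the fitted changes.

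Eprs in neutrophils was at 0 (0 of 866513 UMIs, which allows up to 3.46 CPM), 11.8 and 84.2 CPM at days 1, 3 and 5 of the CD45+ experiment, the last from 9 UMIs. In the pool it was at 11.6, 52.6 and 158 CPM. Both experiments were lowest at day 1 and highest at day 5, and the fitted difference from day 1 to day 5 was 3.59 on the log2 scale (SE 0.65), given as a description. It was carried by few cells: at day 5 of the pool 31 of 224 neutrophils (13.8%) held its 143 UMIs, and 1 cell of 6153 UMIs held 51 of them. Without that cell the level was 102 CPM. In the 8 cells with at least 4 Eprs UMIs, which held 117 of the 143, macrophage markers were at 641 CPM against 1313 CPM in the other cells, and the other synthetases at 427 against 350 CPM. The cell with 51 Eprs UMIs was 1 of these 8 and held 8 macrophage marker UMIs among its 6153. These 8 cells were picked by their Eprs count, so their levels are a description only. At day 3 147 of 992 cells (14.8%) and at day 1 11 of 254 (4.33%) had an Eprs UMI. By cluster, Eprs was at 40.3, 64.0 and 214 CPM at days 1, 3 and 5 in pool cluster 1 (led by Tnf, Gm12840 and Icam1) and at 8.0, 14.7 and 8.1 CPM in cluster 2 (led by Retnlg, S100a9 and Gm5483). With classes from each cell's own markers the fitted difference was 1.64. That rule put 409 of the 522 CD45+ day 1 cells in neutrophils, against 216 by cluster.

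The other synthetases of neutrophils, summed, were at 134, 213 and 327 CPM at days 1, 3 and 5 of the CD45+ experiment and at 130, 296 and 356 CPM in the pool. Day 1 was lowest in both on this scale, but not with TMM factors, where the CD45+ values were level at 227, 225 and 214 CPM and those of the pool were 170, 263 and 246 CPM. Macrophage markers in the same CD45+ sums went from 194 to 1633 and 4826 CPM, and their part in these levels was not tested. Nars was at 42.7, 92.3 and 112 CPM and at 41.1, 83.8 and 65.4 CPM in the pool, and its fitted change from day 1 to day 5 was 0.00 (adjusted p = 1.00). Sars was at 8.08, 18.9 and 0 CPM (0 of 106922 UMIs, which allows up to 28.1 CPM) and at 14.3, 30.6 and 38.8 CPM in the pool. Rars, which charges arginine, had the largest fitted increase after Eprs: it was at 3.46, 11.8 and 18.7 CPM (3, 5 and 2 UMIs) and at 6.26, 14.1 and 26.6 CPM in the pool, with a change of 1.31 (SE 0.74, edgeR adjusted p = 0.30) that was called only with total counts. Of the other tested synthetases, Aars, Cars, Dars, Gars, Hars, Kars, Mars, Qars and Vars had fitted changes from -0.26 (Cars) to 1.26 (Hars, SE 0.80, adjusted p = 0.37), with levels from 0 to 37.4 CPM. The 5 synthetases that could not be tested were at 0 to 26.6 CPM (Lars, pool day 5) and the 6 other untested members at 0 to 11.8 CPM (Mthfd2, CD45+ day 3).

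In heart neutrophils Slc7a11 was at 1125, 2338 and 1833 CPM at days 1, 3 and 5 of the CD45+ experiment and at 3431, 2460 and 1591 CPM in the pool. Both experiments fell from day 3 to day 5, and day 1 was the lowest of the CD45+ experiment and the highest of the pool. With TMM factors the values were 1908, 2467 and 1200 CPM and 4497, 2184 and 1101 CPM in the pool, with day 5 lowest in both. The fitted change from day 1 to day 5 was -1.28 (SE 0.47, edgeR adjusted p = 0.11), -0.56 within the CD45+ experiment and -1.95 within the pool. In pool cluster 1 it was at 3846, 2318 and 1039 CPM and in cluster 2 at 3363, 2882 and 3040 CPM. Ddit4 was at 61.2, 35.5 and 37.4 CPM and at 34.9, 18.3 and 24.4 CPM in the pool, highest at day 1 in both, with a change of -1.51 (SE 0.49, adjusted p = 0.074).

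Slc3a2 in neutrophils was at 546, 537 and 645 CPM and at 500, 449 and 473 CPM in the pool (change -0.93, SE 0.38, edgeR adjusted p = 0.15). Atf4 was at 132, 104 and 112 CPM and at 237, 318 and 348 CPM in the pool, where each value was above all CD45+ values (change -0.77, adjusted p = 0.29). Ddit3 was at 149, 161 and 187 CPM and at 129, 143 and 156 CPM in the pool (change -0.68, adjusted p = 0.31). Under total counts these 3 changes had the opposite sign, at 0.09, 0.21 and 0.31, as did that of Asns (-0.36 against 0.65). Sesn2 was at 13.8, 21.3 and 18.7 CPM and at 34.9, 28.9 and 28.8 CPM in the pool, and Chac1 at 1.15, 4.73 and 0 CPM and at 5.36, 29.7 and 16.6 CPM. Neither passed the test.

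**Figure D3:**
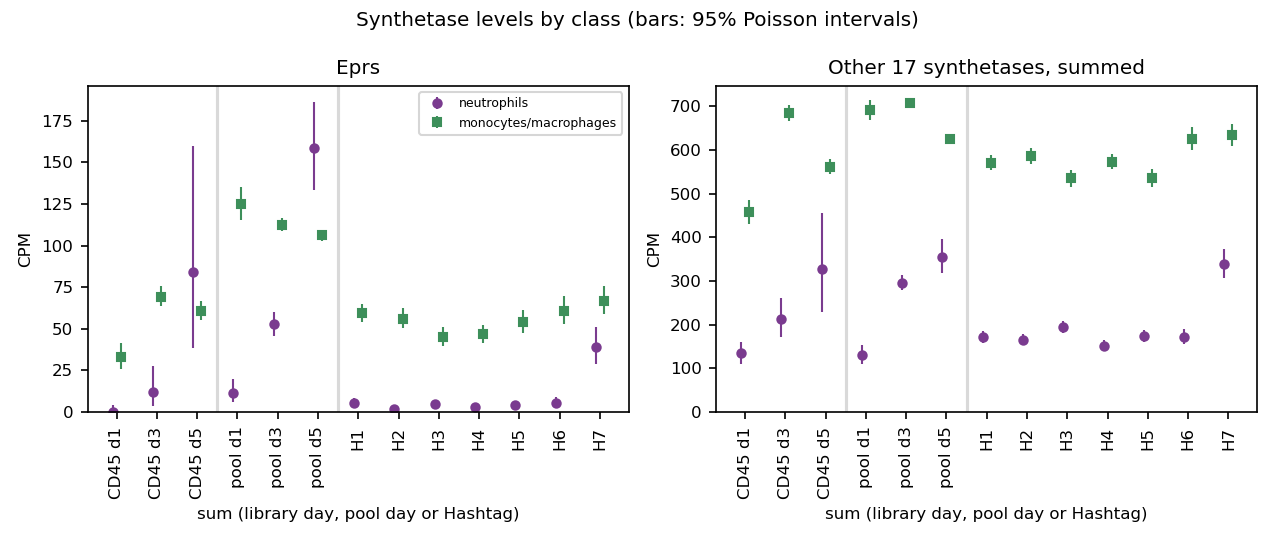
Level (CPM) of Eprs and of the other 17 synthetases summed in each of 13 sums, for neutrophils and monocytes/macrophages, with bars for 95% Poisson intervals. The other synthetases were lower in neutrophils in every sum (for example 356 against 625 CPM at pool day 5), while Eprs was higher in neutrophils in 2 of the 13.

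The difference in day effect between the classes was tested in 1 fit of 12 sums. Apart from Eprs, which is not tested here (3.40 on the log2 scale, SE 0.68), no member was called from day 1 to day 5 (1.12% of 10132 genes), and 5 others had p under 0.05 before adjustment. For Slc7a11 the difference was 1.25 (SE 0.50, edgeR adjusted p = 0.23) and for Ddit4 1.19 (SE 0.51, adjusted p = 0.25). The cells of both classes of a library come from the same mice, and with each library as a replicate block Slc7a11 was called, at 1.31 (SE 0.35, edgeR adjusted p = 0.0058), beside 7.02% of all genes, and Ddit4 was not (1.05, adjusted p = 0.25). That fit has 2 residual degrees of freedom and took its spread from all genes together. Slc7a11 was also called without a filter on low counts and with total counts, where Ddit4 was too, and DESeq2 called Slc3a2 but not Slc7a11. No member was called by edgeR from day 1 to day 3 (0.0296% of all genes) or from day 3 to day 5 (0%). DESeq2 called none there either. Before adjustment, 3 and 0 of the members other than Eprs had p under 0.05. In the fit without blocks the share of all genes with such a p is not given. The unadjusted counts therefore do not set the members apart.

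Between classes, levels are a description, since clusters of the same counts set the classes. In all 13 sums with both classes, Ddit3 (4.45 to 11.4 times), Sesn2 (2.67 to 8.85 times) and Slc7a11 (1.35 to 53.9 times, median 10.3) were higher in neutrophils than in monocytes/macrophages. Of the synthetases, 12 of 18 were lower in neutrophils in all 13 sums, and so were Mthfd2, Psat1 and Shmt2. Atf4 itself was higher in neutrophils in 6 of the 13. Median depth per cell was 2542 to 4316.5 UMIs in neutrophils and 7250.5 to 29885.5 UMIs in monocytes/macrophages, and its part in these ratios was not tested. The 10 neutrophil markers alone summed to 49910 to 254670 CPM in neutrophils, and their part was not tested either. How many of all genes were lower or higher in neutrophils in all 13 sums was not counted. The counts above therefore do not set the members apart from other genes.

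Over the 7 Hashtags of the pool from blood and heart, Slc7a11 had its lowest, median and highest level at 45.5, 81.1 and 248 CPM in neutrophils and at 2.08, 2.90 and 59.9 CPM in monocytes/macrophages. Slc3a2 was at 24.9, 31.9 and 104 CPM and at 32.1, 36.9 and 122 CPM, below every sum of the digested hearts. Atf4 was at 50.1, 66.3 and 190 CPM and at 59.2, 78.1 and 112 CPM. Ddit3 was at 101, 115 and 169 CPM in neutrophils and at 13.4, 17.9 and 21.0 CPM in monocytes/macrophages, and Sesn2 at 92.4, 107 and 140 CPM and at 11.9, 13.7 and 28.3 CPM. Ddit4 was at 3.98, 6.13 and 26.1 CPM in neutrophils and at 13.4, 32.7 and 48.5 CPM in monocytes/macrophages. Eprs was at 1.78, 4.69 and 38.7 CPM in neutrophils and at 45.0, 56.1 and 66.9 CPM in monocytes/macrophages. Tissue, digestion, chemistry and sort differ between these experiments and cannot be told apart.

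**Figure D4:**
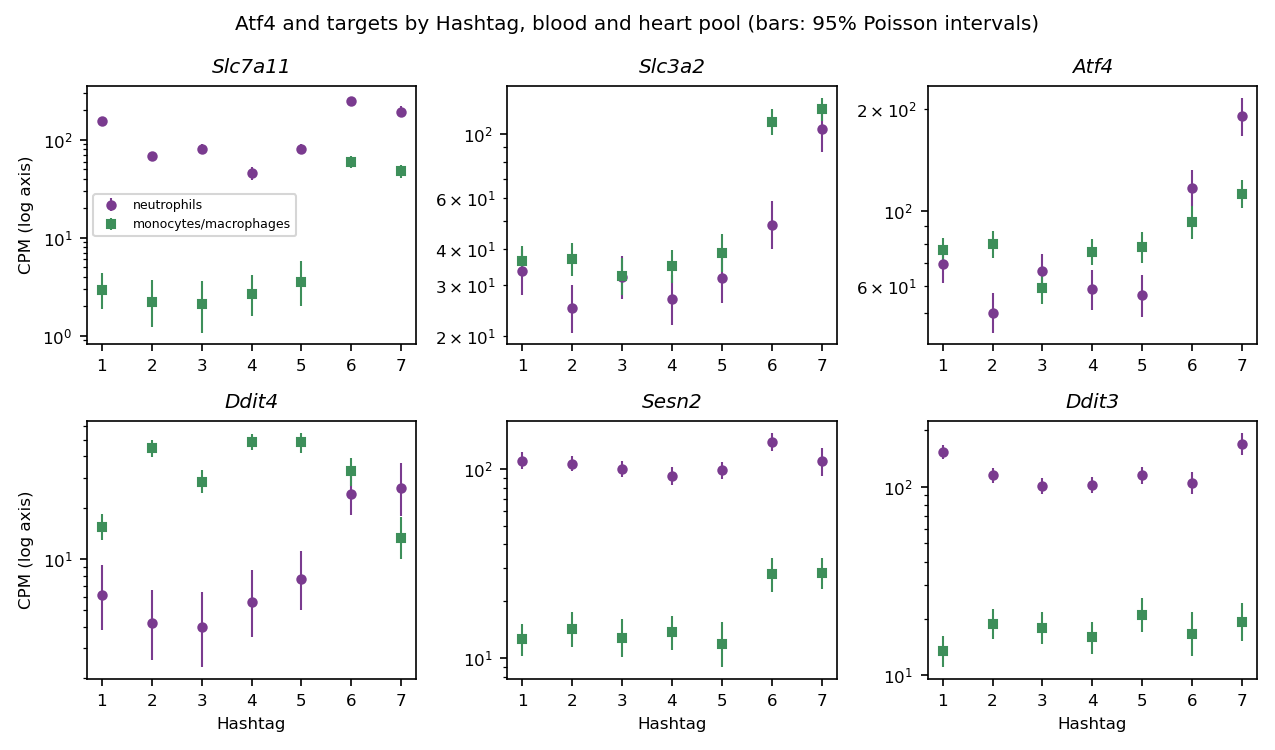
Levels (CPM, log axis) of Slc7a11, Slc3a2, Atf4, Ddit4, Sesn2 and Ddit3 in neutrophils (circles) and monocytes/macrophages (squares) of the blood and heart pool by Hashtag, with bars for 95% Poisson intervals. The Hashtags were not mapped to conditions; Ddit3, Sesn2 and Slc7a11 are higher in neutrophils in each of the 7.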

How the data were processed

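Per the labels' protocols, RNA of single cells was measured in 5 CD45+ libraries, 1 CD11b+ pool and 1 blood and heart pool. The values are raw counts of UMIs per gene and cell deposited by the authors, with hashtag counts for the pools. Cell Ranger and build mm10 are named in the submitters' processing notes, and Cell Ranger 3.0.2 per the file headers of the pools; the annotation release is not given in the sources used here. The members, lists and tests were chosen with earlier results of these data known.

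Cells were kept from 200 genes upward where mitochondrial UMIs made up no more than 10%. Doublets were removed with Scrublet (scanpy 1.11.5) in the CD45+ libraries, where it marked 2 to 6 cells each, and as cells with several hashtags in the pools (6.28% and 12.5% of barcodes). Cells of each experiment were scaled to 10000 UMIs and clustered (2000 variable genes, 30 components, 15 neighbours, Leiden resolution 0.5). A cluster took the class with most fixed markers among its top 10 genes. It stayed unnamed unless at least 3 markers of that class were detected in 20% of its cells at 1.5-fold. With no marker of the class in the top 10, it also needed a clear lead in detected markers over other classes and enough depth.

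UMIs were summed per class, day and experiment over at least 30 cells. edgeR 4.0.16 (R 4.3.3; filterByExpr, TMM, quasi-likelihood test) fitted day and experiment, with a threshold of 0.05 on the adjusted p. Each sum pools mice, and the 2 experiments are the only repeats (2 residual degrees of freedom), so p-values measure the spread between sums. The biological coefficient of variation was 31.0% in neutrophils and 19.2% in monocytes/macrophages. In simulated counts, 200 genes were changed by 2 on the log2 scale. The day 5 against day 1 fit recovered 30.5% of them in neutrophils (6014 genes) and 63.5% in monocytes/macrophages (10675 genes). The simulated coefficient of variation was 30%, above the 19.2% of monocytes/macrophages.

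Values in each sum are given for members past the threshold, for Eprs, Atf4 and Ddit3, for the 3 synthetases and 4 other members of highest mean level per class, and for the 2 largest fitted changes each way per class; Gars, Aars, Psat1, Phgdh, Trib3, Sesn2 and Chac1 were added after their values were seen. Alternatives were DESeq2 1.42.0, scaling by total counts, no filter on low counts, no experiment term, classes from each cell's own markers (at least 5 UMIs and 3 times the other class), a mitochondrial limit of 20%, 2 days alone, each sum left out and, for the difference between classes, each library as a replicate block. The cells of both classes of a library come from the same mice, and deviations from day and experiment correlated between its classes at 0.147 to 0.255 over 10132 genes. The 95% intervals and the limit of 3 counts cover counting error only.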

Additional observations from a re-analysis of the deposited data

How the results depend on the processing

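Apart from Eprs, no neutrophil member was called under any alternative but these: Rars from day 1 to day 5 with total counts, Slc7a11 there without CD45+ day 1, Atf4 and Ddit4 from day 1 to days 3 and 5 without pool day 1, and Ddit4 from day 1 to day 3 without CD45+ day 1. Calls of Eprs in neutrophils are left out here, since nothing is read from them. Ranges in brackets below are counts with a sum left out. In monocytes/macrophages the count of 1 from day 1 to day 3 became 2 with DESeq2, without a filter, with own markers or with 2 days alone, and 0 with total counts or without the experiment term (0 to 8). The count of 6 from day 1 to day 5 became 0 without the experiment term, 3 with 2 days alone, 4 with total counts (Asns and Mthfd2 lost), 4 with own markers (Slc7a5 and Asns lost), 5 with the 20% mitochondrial limit (Asns lost) and 7 with DESeq2 (Gars gained; 2 to 10 with a sum left out: 2 without CD45+ day 5 or pool day 5, 3 without pool day 3, 10 without pool day 1). From day 3 to day 5, 0 became 1 with DESeq2, without a filter or with own markers, and 4 with 2 days alone (0 to 4). In monocytes/macrophages DESeq2 called 588, 1832 and 123 of all 10637 genes in these 3 contrasts, in the order given. With total counts edgeR called 4, 1250 and 4. Between the classes, Eprs left out, Slc3a2 was called from day 1 to day 5 with DESeq2 and Slc7a11 without a filter. Slc7a11 and Ddit4 were called with total counts, and none without the experiment term. With own markers, day 1 of monocytes/macrophages was left with 1 sum, so no call is read there. With each library as a replicate block, chosen after seeing the data and with Eprs left out, the only call was Slc7a11 for day 5 against day 1. The 1 member past 2-fold at day 7 became 4 with own markers, and that count for day 1 against steady state could not be run with own markers (28 cells). Own markers also took in cells of other types. They put 1745 of 1793 CD45+ day 7 cells in monocytes/macrophages, though 962 cells of that library lay in the B cell cluster. At CD45+ day 1 they put 409 of 522 cells in neutrophils, against 216 by cluster. Eprs in monocytes/macrophages from day 1 to day 5 reversed to 0.61 when pool day 1 was left out (lowest -0.39). The cause of each was not tested, except that the 2-day and left-out fits use fewer sums. Within a class no paired analysis was possible because 1 sum per day and experiment carries no replicate number; the experiment is a term of each fit. Of 168 levels of 6 members, 87 left their 95% interval with TMM factors, 70 of 162 with own markers and 4 of 168 with the 20% mitochondrial limit. Depth limits neutrophils most: the CD45+ day 5 sum held 106922 UMIs.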

Other observations

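Genes next to the pathway were counted from lists chosen with the members. Of 12 hypoxia response genes 11 were tested in monocytes/macrophages and 9 were lower at day 5 than at day 1, beside 7.34% of all genes, among them the prolyl hydroxylase gene Egln3 (-3.52 on the log2 scale, SE 0.29, edgeR adjusted p = 0.0046) and Ankrd37 (-2.58). Car9 was the only one with a positive change (1.44, adjusted p = 0.072). In neutrophils 6 of 10 were lower, beside 5.09% of all genes, with Egln3 at -2.77 and the glycolysis gene Pgk1 at -2.73. Of 16 endoplasmic reticulum chaperone genes 5 were lower in monocytes/macrophages, with Dnajb9 at -1.56 and the stress factor Xbp1 at -1.35, and 4 in neutrophils, with Manf at -2.46 and Xbp1 at -2.24. The medians were -1.99 and -0.52 in monocytes/macrophages and -2.11 and -0.96 in neutrophils. All of these shared the sums of the report's contrasts.

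Other genes of the integrated stress response went both ways. In monocytes/macrophages 3 of 24 were higher at day 5 (6.12% of all genes), led by the secreted stress marker Gdf15 (3.39, SE 0.44, edgeR adjusted p = 0.011) and Pck2 (1.60), and 8 were lower, led by Herpud1 (-1.47) and the cationic amino acid transporter Slc7a1 (-1.23). In neutrophils 2 of 18 were higher (Gdf15 at 2.51 and Eif2s1 at 1.92; 1.68% of all genes) and 1 was lower, the eIF2 kinase gene Eif2ak2 (-2.54), a share near the 5.09% of all genes. Of 5 genes of partner subunits of the synthetases 1 was lower in monocytes/macrophages (Eef1e1 at -1.09), and none of 4 was called in neutrophils, where all were positive (median 1.57). None of 16 mitochondrial synthetases was called in monocytes/macrophages nor the 1 tested in neutrophils. Of the interferon response genes only Isg15 was called in monocytes/macrophages (-1.14, of 12) and none of 11 in neutrophils.

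The Hashtags of the pool from blood and heart, which were not mapped to conditions, did not give like levels. In monocytes/macrophages Slc7a11 was at 2.90, 2.22, 2.08, 2.65 and 3.53 CPM in Hashtags 1 to 5 and at 59.9 and 47.6 CPM in Hashtags 6 and 7, although 1 cell gave 42 of the 185 UMIs of Hashtag 7. Slc3a2 was at 36.4, 36.9, 32.1, 34.8 and 38.8 CPM in Hashtags 1 to 5 and at 110 and 122 CPM in Hashtags 6 and 7, and Sesn2 at 12.6, 14.3, 12.8, 13.7 and 11.9 CPM against 27.7 and 28.3 CPM. In neutrophils Ddit4 was at 6.13, 4.23, 3.98, 5.62 and 7.68 CPM in Hashtags 1 to 5 and at 24.0 and 26.1 CPM in Hashtags 6 and 7, and Atf4 at 69.7, 50.1, 66.3, 58.7 and 56.3 CPM against 117 and 190 CPM. Ddit4 in monocytes/macrophages did not divide the Hashtags in that way, at 15.5, 44.6, 28.5, 48.5, 48.3, 32.7 and 13.4 CPM in Hashtags 1 to 7. On the CPM scale Hashtag 7 alone stood out in neutrophil synthetases. Without Eprs they summed to 171, 165, 194, 151, 174 and 171 CPM in Hashtags 1 to 6 and to 338 CPM in Hashtag 7. TMM factors of the neutrophil sums were 0.874 to 0.969 in Hashtags 1 to 6 and 1.44 in Hashtag 7. Dividing by them would narrow this gap and lower the other neutrophil levels of Hashtag 7 against the rest. A monocyte/macrophage cluster led by Thbs1, Spp1 and Arg1 held 102 and 141 cells of Hashtags 6 and 7 and 0 to 3 cells of each other Hashtag.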
